A study of Mus musculus with 6 samples.

Results

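The homologous recombination and Fanconi anaemia genes were 33 genes chosen by symbol from the 55487 genes of the deposited count table, and all 33 had enough counts to be tested among 14481 genes. Messenger RNA was sequenced from mouse acute lymphoblastic leukaemia cells of bone marrow; the cells had been sorted for GFP, carried by the transplanted leukaemia, together with B220, found on the surface of B-lineage cells. There were 3 libraries of miR-182 KO leukaemia (KO, replicates 2, 3 and 4) and 3 of WT leukaemia (WT, replicates 1, 3 and 4), all labelled Day 0. In the series BCR-ABL (P190) is used to give B-ALL and Notch to give T-ALL. The B220 sort is stated for all 6 libraries, although its text names 182WT and 182NC cells for both genotypes. Mice of 6 to 8 weeks were used for transplantation. The labels name no mouse, donor or batch for any library, so p-values measure only the spread between these libraries.

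Homologous recombination repairs a broken chromosome by copying the intact sister. The broken ends are cut back to single strands, and these, prepared with the help of BRCA2 and its partners, then invade the sister. The Fanconi anaemia pathway handles crosslinks between the strands: a core complex attaches ubiquitin to the FANCD2-FANCI pair, which directs nucleases and recombination to the lesion. Dividing lymphoid cells rely on these genes during S phase, and many of them are transcribed mainly in cycling cells. BRCA1 is known in human cells as a target of miR-182, which is the question a KO of this microRNA raises for these genes.

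The mature microRNA and its seed matches in the members are shown as a description of sequence. RefSeq gives mmu-miR-182-5p at chr6:30165962-30165986 (GRCm38.p6, minus strand), 25 bases long, printed with the seed, bases 2 to 8, in capitals. Of 32 members with an annotated 3′ UTR (GENCODE, GRCm38), 3 held the reverse complement TTGCCAA of that seed, against 1428 of 11972 tested genes (11.9%). Brca1 was not among the 3: its longest annotated 3′ UTR of 1003 bases held 0 matches. Mre11a held 2 and Exo1 and Rad51c held 1 each, each shown in 30 bases with the match in capitals. Their longest 3′ UTRs had 3460, 4924 and 2741 bases, against medians of 938.5 for the members and 1164 for tested genes. The first Mre11a window lies at chr9:14834804-14834833 and the second at chr9:14836032-14836061 (plus strand), the Exo1 window at chr1:175912746-175912775 (plus strand) and the Rad51c window at chr11:87378514-87378543 (minus strand). A match is a description of the letters and not a measured site. Only TTGCCAA in the longest 3′ UTR of each gene was searched. A count of 0, as in Brca1, says only that these letters are absent there.
mmu-miR-182-5p: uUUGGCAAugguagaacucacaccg
Mre11a, first match: gtgcctgtctggaacTTGCCAAgtttttga
Mre11a, second match: gccccagcccagagcTTGCCAAgtgtgcgt
Exo1: agcacaattgaccccTTGCCAActtgacat
Rad51c: tatgtatctgtgtgtTTGCCAActgtgtgg

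Library totals ran from 20527487 to 29237035 counts in KO and from 17704382 to 23311040 in WT, and levels are TMM-normalised CPM, counts scaled by the effective library total. Mir182 had 0 counts in all 6 libraries, and mature microRNAs are not captured by such libraries, so the genotype could not be checked. The heavy-chain V segment Ighv2-5 led in all 3 KO libraries and Ighv5-16 in all 3 WT libraries, so genotype and leukaemia cannot be told apart. The 10 B-lineage markers summed to between 6373 and 7203 CPM in KO and between 6506 and 6894 CPM in WT, with 3 that rose and 3 that fell. The 17 neutrophil markers summed to between 1389 and 7073 CPM in KO and between 16996 and 41569 CPM in WT, and all 17 fell. Monocyte and macrophage markers (14) summed to between 305 and 710 CPM in KO and between 1525 and 4566 CPM in WT, with 12 that fell, and T and NK cell markers (10) to between 17.1 and 20.0 CPM in KO and between 106 and 157 CPM in WT, with all 7 tested markers lower. Erythroid markers (8) stood between 97.3 and 124 CPM in KO and between 24.9 and 245 CPM in WT, and 0 of 6 tested were called. None of these markers had 0 counts in all 6 libraries. In bulk samples fewer cells of a type and less RNA per cell cannot be told apart, and the part that these other cells play in the results below was not tested.

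Among the 33 members 13 rose in KO, 2 fell and 18 were not called by the edgeR quasi-likelihood test with Benjamini-Hochberg adjustment over all genes, at an adjusted p below 0.05. Of all 14481 tested genes 23.9% rose and 28.5% fell, 52.5% in either direction. The members' median log2 fold change, KO over WT, was 0.33, against -0.0015 for all tested genes, whose middle 50% lay between -0.52 and 0.35. The fold changes were small, from -0.79 for Rad52 to 0.77 for Nbn, and 28 of 33 were above 0, against 7226 of 14481. All KO libraries lay above all WT libraries in 16 members, where 30.8% of tested genes did so, and below them in 3, where 33.2% did so. The count of members that rose depended on the libraries: it was 7 without KO replicate 2, 7 without KO replicate 4, 8 without WT replicate 1, 5 without WT replicate 4, 10 without WT replicate 3 and 18 without KO replicate 3. Among all tested genes, 2654 of 15094 rose without KO replicate 2 and 2990 of 14823 without KO replicate 4. Without WT replicate 1 this was 2999 of 14960, and without WT replicate 4 it was 2396 of 14987. Without WT replicate 3 it was 3848 of 14819, and without KO replicate 3 it was 2799 of 14785. The count of members that fell was 0 without KO replicate 2, KO replicate 3 or WT replicate 4 and 1 without KO replicate 4 or WT replicate 3. The authors' deposited table, made with DESeq2, listed 14 members as higher, 1 as lower and 18 at an FDR of 0.05 or more, with the same sign as here in all 33.

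**Figure D1:**
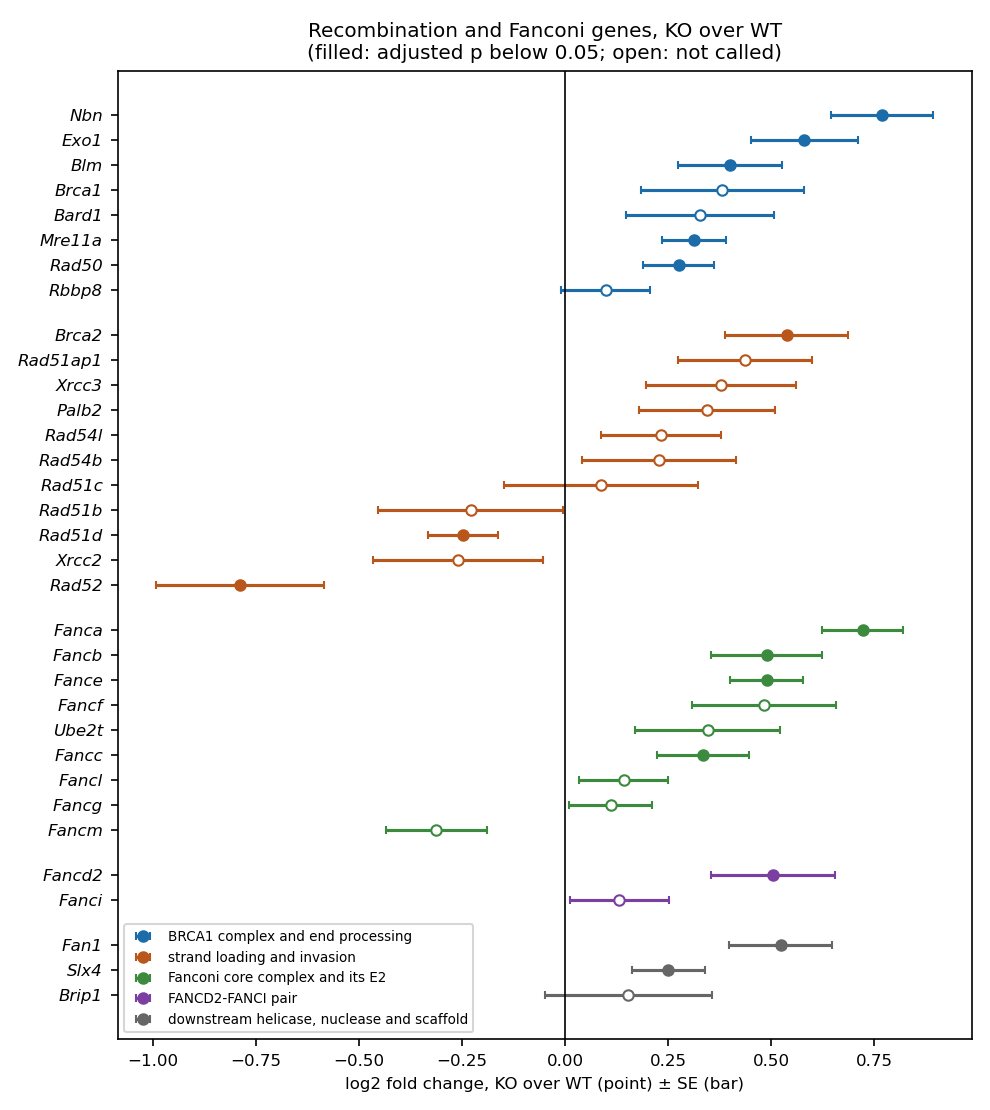
Log2 fold change, KO over WT, of each of the 33 members (horizontal axis) with its SE as a bar, ordered by size within 5 roles (colours), where filled points have an adjusted p below 0.05 and open points do not. The BRCA1 and end-processing genes all lie above 0, and Rad52 at -0.79 is the lowest point.

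By count, end processing held the most members that rose. Of 8 genes, 5 rose and 3 were not called, with a median log2 fold change of 0.36. The share that rose was 62.5%, against 23.9% of all tested genes, and 2 of the 3 downstream genes rose (66.7%). MRE11A, RAD50 and NBN form the MRN complex that binds the broken end first, and all 3 of its genes rose. Nbn (chromosome 4 from 15957925 to 15992589, plus strand) had 48.0, 36.3 and 47.3 CPM in KO replicates 2, 3 and 4, against 24.4, 27.2 and 25.4 CPM in WT replicates 1, 3 and 4. Every KO library lay well above every WT library, and the log2 fold change was 0.77 (SE 0.12, adjusted p = 0.0028). Mre11a, the nuclease of the complex (chromosome 9 from 14784654 to 14837123, plus strand), had 70.2, 69.5 and 76.0 CPM in KO and 54.1, 61.3 and 58.1 CPM in WT, with no overlap (0.31, SE 0.08, adjusted p = 0.0141). Rad50, the ATPase that bridges the ends, had 96.5, 87.7 and 102 CPM in KO and 77.2, 84.7 and 74.6 CPM in WT. The genotypes did not overlap, and the log2 fold change of 0.28 (SE 0.09) had an adjusted p of 0.0321. The call of Nbn held in all 13 alternatives, while those of Mre11a and Rad50 were lost with the replicate number as a block. With 1 library left out at a time, that of Mre11a was lost without WT replicate 4, and that of Rad50 was lost without KO replicate 2, KO replicate 4, WT replicate 1 or WT replicate 4 (adjusted p over the 13 alternatives 0.0027 to 0.0516 for Mre11a and 0.0136 to 0.117 for Rad50).

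Exo1, the exonuclease of long-range resection, also rose (chromosome 1 from 175880581 to 175913489, plus strand). It had 52.6, 42.8 and 59.2 CPM in KO and 31.6, 34.8 and 36.8 CPM in WT, with the lowest KO library above the highest WT library (0.58, SE 0.13, adjusted p = 0.0093). Blm, the helicase that works with it and later takes recombination intermediates apart, averaged 63.6 ± 10.5 CPM in KO and 48.2 ± 2.48 CPM in WT (SD, n = 3 each). It rose by 0.40 (SE 0.13, adjusted p = 0.032), a call lost without KO replicate 2, KO replicate 4 or any WT library (0.0111 to 0.0748 over the alternatives). Brca1, the scaffold that promotes resection and brings in PALB2 and BRCA2, was not called (chromosome 11 from 101488764 to 101551955, minus strand). Its levels were 76.1, 54.6 and 93.3 CPM in KO and 50.9, 55.0 and 65.9 CPM in WT, and the genotypes overlapped. KO replicates 2 and 4 lay above every WT library and KO replicate 3 lay below WT replicate 3, which gave a log2 fold change of 0.38 with an SE of 0.20 (adjusted p = 0.141). Bard1, the obligate partner of BRCA1, was not called either, with KO replicates 2 and 4 above every WT library and KO replicate 3 within the WT range (0.33, SE 0.18, adjusted p = 0.162). Without KO replicate 3 both passed, Brca1 at 0.59 (adjusted p = 0.0287; 0.0287 to 0.352 over the alternatives) and Bard1 at 0.51 (0.0333; 0.0333 to 0.396). Rbbp8, which encodes the resection factor CtIP, averaged 59.7 ± 7.73 CPM in KO and 55.7 ± 2.57 CPM in WT (SD, n = 3 each) and was not called (0.10, adjusted p = 0.467).

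**Figure D2:**
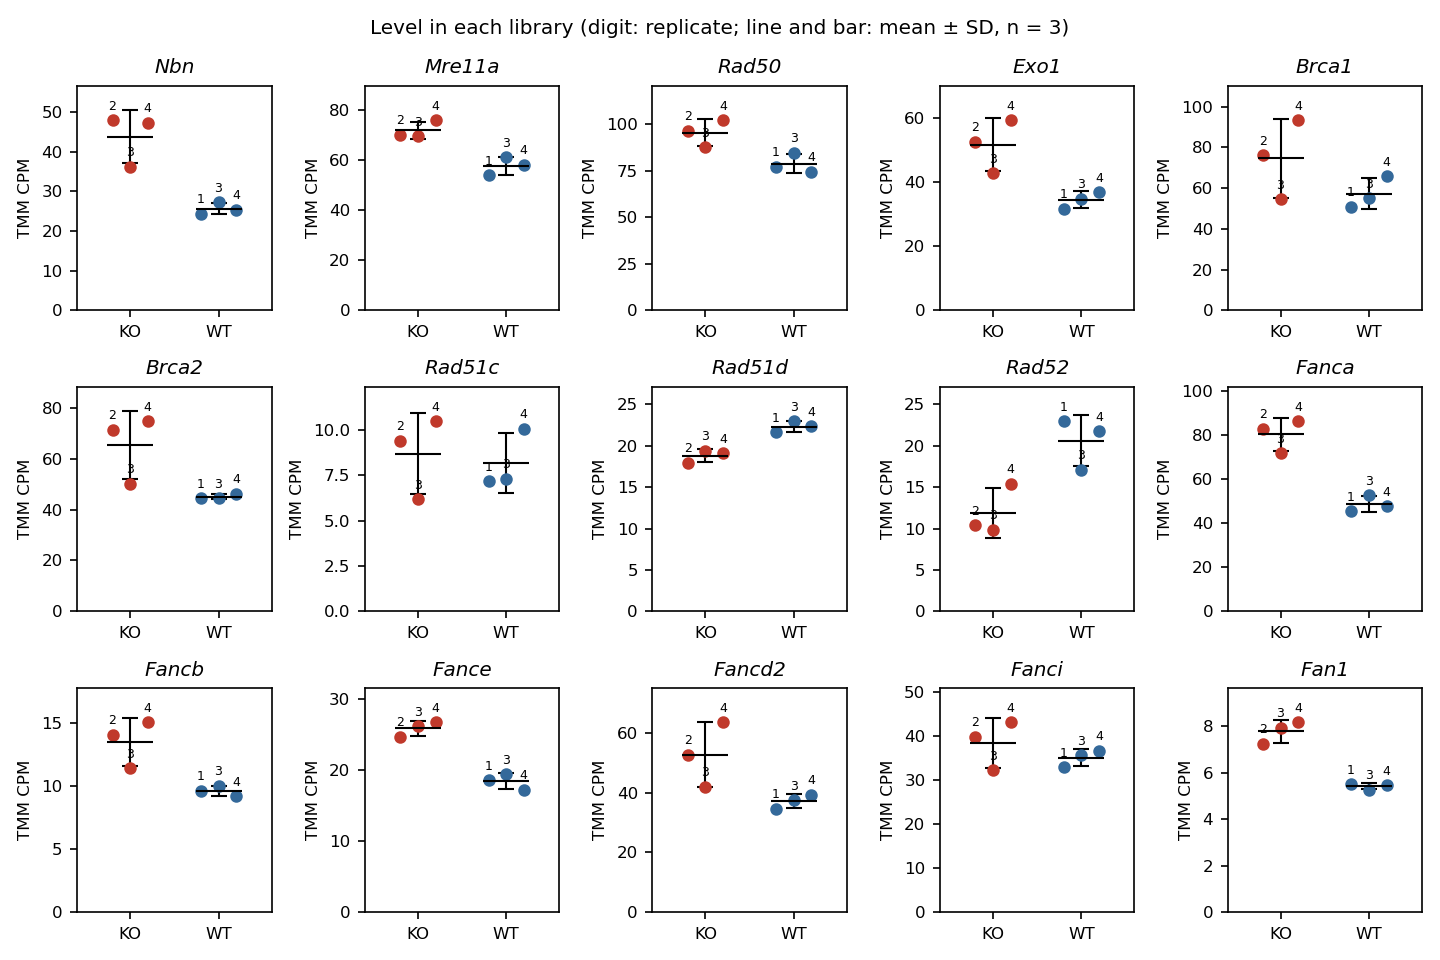
TMM-normalised CPM (vertical axes, from 0) of 15 members in each KO library (red, left) and each WT library (blue, right), with the replicate number above each point and the mean ± SD of 3 libraries as a line and bar. KO replicate 3 is the lowest KO point for Nbn, Exo1, Brca1, Brca2 and Fancd2, while Fance, Fan1 and Rad51d have 3 KO points close together.

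The genes for strand loading and invasion split by member. Of 11, 1 rose, 2 fell and 8 were not called, with a median log2 fold change of 0.23 and a range from -0.79 to 0.54. Brca2, the mediator that prepares single strands for invasion (chromosome 5 from 150522630 to 150570329, plus strand), was the riser, with 71.4, 50.2 and 74.7 CPM in KO and 44.4, 44.5 and 46.2 CPM in WT. The WT libraries lay close together and every KO library lay above them (0.54, SE 0.15, adjusted p = 0.0203). That call was lost without KO replicate 2 or WT replicate 4 (0.0026 to 0.056 over the alternatives). Palb2, which joins BRCA1 to BRCA2, had 15.03, 15.2 and 21.4 CPM in KO and 12.1, 14.3 and 14.2 CPM in WT, a difference of 0.34 that was not called (SE 0.17, adjusted p = 0.118) although the genotypes did not overlap.

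Rad52, a single-strand annealing protein that in mammals backs up BRCA2, went the other way (chromosome 6 from 119902698 to 119922828, plus strand). It had 10.4, 9.85 and 15.4 CPM in KO and 23.0, 17.1 and 21.8 CPM in WT, with every KO library below every WT library. Its log2 fold change of -0.79 (SE 0.20, adjusted p = 0.0156) was the largest fall of the members, and the call was lost without KO replicate 2, KO replicate 3 or WT replicate 4 (0.0018 to 0.06 over the alternatives). The 5 genes whose products form the BCDX2 and CX3 complexes, which assist strand invasion, did not move together. Rad51d had 17.9, 19.4 and 19.1 CPM in KO and 21.6, 23.0 and 22.4 CPM in WT, a small fall of -0.25 (SE 0.08, adjusted p = 0.0434) that was called under only 2 of 13 alternatives and was lost without any 1 of the 6 libraries (0.0373 to 0.325). Rad51c had 9.40, 6.17 and 10.5 CPM in KO and 7.15, 7.30 and 10.05 CPM in WT, so the KO range enclosed the WT range (0.09, SE 0.24, adjusted p = 0.774). Xrcc3 (0.38), Xrcc2 (-0.26) and Rad51b (-0.23) were not called, with adjusted p of 0.12, 0.32 and 0.418. Among the other genes of this step, Rad51ap1, which stimulates strand invasion, averaged 49.1 ± 10.3 CPM in KO and 36.3 ± 3.404 CPM in WT and was not called (0.44, SE 0.16, adjusted p = 0.056). It passed without KO replicate 3, with RLE or upper-quartile factors, in DESeq2 and with no filter on low counts (0.0154 to 0.136 over the alternatives). The translocases Rad54l (0.23) and Rad54b (0.23), which act on the duplex during invasion, were not called either (adjusted p = 0.216 and 0.335), and Rad54l passed without KO replicate 3 (0.0368 to 0.601 over its alternatives).

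**Figure D3:**
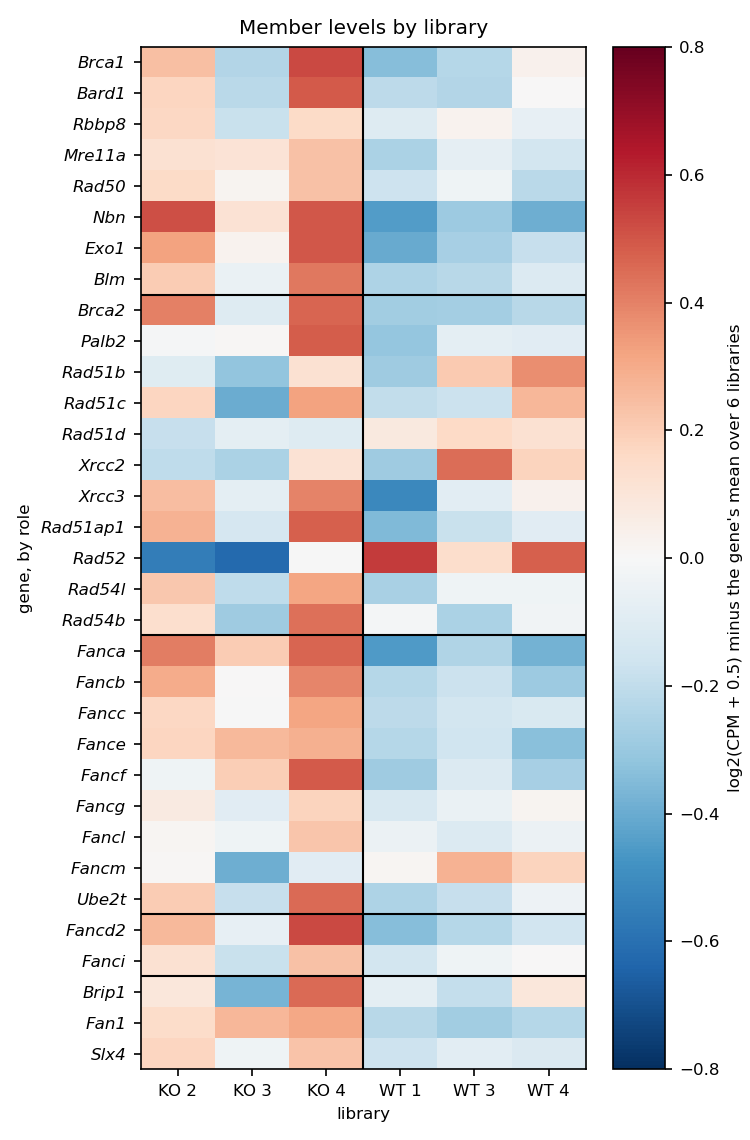
Level of each of the 33 members (rows, by role) in each library (columns), as log2(CPM + 0.5) minus the gene's mean over the 6 libraries, red above and blue below the mean. The KO 4 column is red for most genes and the KO 3 column is pale or blue for most, and Rad52, Rad51d and Fancm are redder in the WT columns than in the KO columns.

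The Fanconi core complex, which with UBE2T attaches ubiquitin to FANCD2, had 4 of 9 genes that rose and 5 that were not called, at a median log2 fold change of 0.35. Of all tested genes 23.9% rose, against 44.4% in this group. Fanca (chromosome 8 from 123268300 to 123318576, minus strand) had the largest rise of these 9, with 82.9, 71.9 and 86.3 CPM in KO and 45.4, 52.8 and 47.8 CPM in WT. The lowest KO library lay above the highest WT library by more than the whole spread of either genotype (0.72, SE 0.10, adjusted p = 0.0015). Fance, which bridges the core complex to FANCD2, had 24.7, 26.2 and 26.8 CPM in KO and 18.6, 19.5 and 17.2 CPM in WT. All 3 KO libraries were alike here, including KO replicate 3 (0.49, SE 0.09, adjusted p = 0.0043). Fancb, X-linked and part of the catalytic module with FANCL, had 14.1, 11.4 and 15.1 CPM in KO and 9.64, 10.03 and 9.19 CPM in WT (0.49, SE 0.14, adjusted p = 0.0201). Fancc, a partner of FANCE in the core complex, rose by 0.33 (SE 0.11, adjusted p = 0.0393). The call of Fancb was lost without KO replicate 2, KO replicate 4 or WT replicate 4 (0.0101 to 0.073). That of Fancc was lost with the replicate number as a block and when any library but KO replicate 3 was left out (0.022 to 0.0968).

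The other genes of this group were not called, at log2 fold changes from -0.31 for Fancm to 0.48 for Fancf. Fancl, the ubiquitin ligase itself, averaged 16.7 ± 1.67 CPM in KO and 15.1 ± 0.386 CPM in WT (SD, n = 3 each; 0.14, adjusted p = 0.297), and Fancg stood at 0.11 (adjusted p = 0.383). Fancf (0.48, adjusted p = 0.0521) and Ube2t (0.35, adjusted p = 0.136) were not called. Fancf was close in size to the called Fancb and Fance (both 0.49). Every KO library lay above every WT library in Fancf and, only just, in Fancl. Fancf passed under 5 of 13 alternatives, among them without KO replicate 2 (adjusted p = 0.03), with RLE or upper-quartile factors and with no filter on low counts (0.0277 to 0.14 over all 13), and Ube2t without KO replicate 3 (0.0317 to 0.325). Fancm, the translocase that anchors the complex to DNA, had 64.5, 48.8 and 60.0 CPM in KO and 64.7, 77.6 and 72.6 CPM in WT. Every KO library lay below every WT library, KO replicate 2 only just below WT replicate 1, and the difference of -0.31 (SE 0.12) was not called (adjusted p = 0.0666), though it passed without WT replicate 1 (-0.38, adjusted p = 0.0433; 0.0046 to 0.224 over the 13 alternatives).

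The 2 genes of the pair that receives the ubiquitin differed in size of change. Fancd2 had 52.6, 42.0 and 63.5 CPM in KO and 34.6, 37.4 and 39.3 CPM in WT, with no overlap, and rose by 0.50 (SE 0.15, adjusted p = 0.027). That call was lost without KO replicate 2, KO replicate 4, WT replicate 1 or WT replicate 4 (0.0062 to 0.0685). Fanci had 39.98, 32.3 and 43.2 CPM in KO and 32.98, 35.7 and 36.7 CPM in WT, with KO replicate 3 below all WT libraries, and was not called (0.13, SE 0.12, adjusted p = 0.387). Whether the change of Fancd2 differs from that of Fanci was not tested. Downstream, Fan1, a nuclease that FANCD2 brings to crosslinks (chromosome 7 from 64346758 to 64374095, minus strand), had 7.25, 7.94 and 8.18 CPM in KO and 5.52, 5.28 and 5.48 CPM in WT. The libraries of a genotype were close together, and the rise of 0.52 (SE 0.12, adjusted p = 0.0116) held in all 13 alternatives. Slx4, the scaffold of structure-specific nucleases, rose by 0.25 (SE 0.09, adjusted p = 0.0483). Its call was lost in limma-voom, with the replicate number as a block and when any library but KO replicate 3 was left out (0.0237 to 0.181). Brip1, the helicase that binds BRCA1, had 39.2, 28.3 and 50.5 CPM in KO and 34.8, 32.2 and 39.2 CPM in WT. It was not called (0.15, adjusted p = 0.55), and its sign turned without KO replicate 4 (-0.045).

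KO replicate 3 stood apart from the other KO libraries across the members. It was the lowest KO library in 28 of 33 members, where 32.6% of all tested genes had it lowest, and KO replicate 4 was the highest in 29, where 37.4% of all tested genes had it highest. KO replicate 2 lay above all WT libraries in 27 members, KO replicate 3 in 16 and KO replicate 4 in 28. KO replicate 3 lay within the WT range in 8 members and below it in 9. Its level over the mean of KO replicates 2 and 4 was lowest for Rad51c (-0.69 on the log2 scale), Brip1 (-0.67), Brca1 (-0.63), Rad54b (-0.59) and Bard1 (-0.56). It was near 0 for Mre11a (-0.07), Fancf (-0.05), Fance (0.03), Fan1 (0.04) and Rad51d (0.07). Among these 10 genes, Mre11a, Fance and Fan1 rose and Rad51d fell, and 0 of the 5 with the lowest KO replicate 3 were called. KO replicate 3 also enters the KO mean and spread that the test uses, so these calls are not independent of that ordering. In WT, replicate 1 was the lowest library in 24 of 33 members, where 37.6% of all tested genes had it lowest.

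Genes of replication and proliferation, 32 in number, likewise had KO replicate 4 highest, KO replicate 2 next and WT replicate 1 lowest. Each gene's level was taken relative to its mean over the 6 libraries, and the median over the members was 0.16, -0.08 and 0.32 in KO replicates 2, 3 and 4, against -0.23, -0.15 and -0.06 in WT replicates 1, 3 and 4 (log2 scale). The median over the replication genes was 0.26, -0.11 and 0.34 in KO, against -0.30, -0.07 and -0.10 in WT. KO replicate 3 was the lowest KO library in 31 of these 32 genes. Of the 32, 10 rose (31.25%, against 23.9% of all tested genes) and 1 fell. Their median log2 fold change of 0.36 was close to the members' 0.33. Uhrf1, which keeps DNA methylation through replication, rose by 0.72 (SE 0.15, adjusted p = 0.0068), and Pole, the leading-strand polymerase, by 0.73 (SE 0.16, adjusted p = 0.0094). Cdt1, a licensing factor, rose by 0.62 (SE 0.14, adjusted p = 0.0084) and Mcm4, a subunit of the replicative helicase, by 0.55 (SE 0.14, adjusted p = 0.0163). E2f2, the gene that fell (-0.37, SE 0.12, adjusted p = 0.0405), is named after its value was seen, and 0 genes fell without KO replicate 2, KO replicate 3, WT replicate 1 or WT replicate 4. The count of 10 was 4 without KO replicate 2, 4 without KO replicate 4, 5 without WT replicate 1, 5 without WT replicate 4 and 23 without KO replicate 3. Neutrophil markers had another order of KO libraries: relative to their mean over the 6 libraries, their median was -2.80, -1.50 and -0.39 in KO replicates 2, 3 and 4, against 2.22, 0.85 and 1.68 in WT replicates 1, 3 and 4 (log2 scale). KO replicate 4, the highest KO library for most members, had the most neutrophil marker RNA of the KO libraries. WT replicate 1, the lowest WT library for most members, had the most of all 6 libraries. The parts of proliferation and of other cells in the members' differences were not tested.

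**Figure D4:**
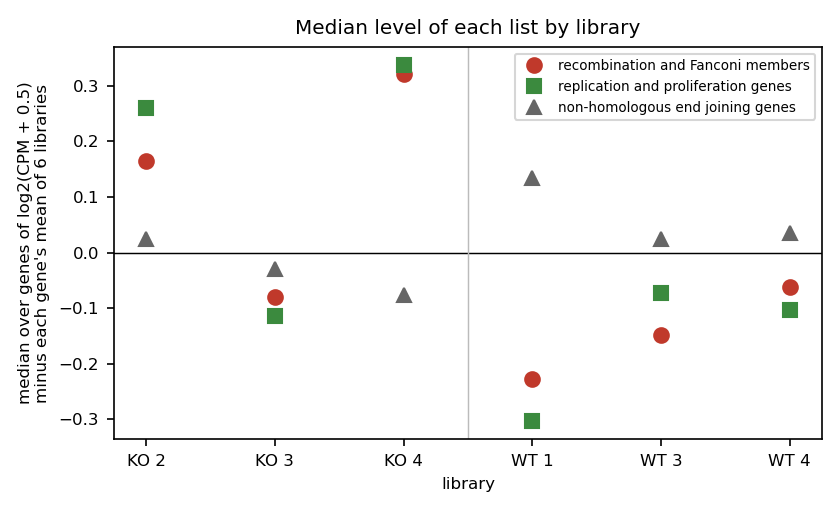
Median over the genes of a list (vertical axis) of log2(CPM + 0.5) minus each gene's mean over the 6 libraries, for the recombination and Fanconi members (circles), the replication and proliferation genes (squares) and the non-homologous end joining genes (triangles), in each library (horizontal axis). Members and replication genes are highest in KO 4, at 0.32 and 0.34, and lowest in WT 1, at -0.23 and -0.30, while the end joining medians stay between -0.08 and 0.13.

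The remaining recombination and crosslink repair genes, 48 listed and 47 tested, moved in both directions: 21 rose, 8 fell and 18 were not called, at a median log2 fold change of 0.26. Of all tested genes 23.9% rose and 28.5% fell, against 44.7% that rose in this list. Of the 4 with the smallest p, Mcm9, a helicase of recombination repair, averaged 57.3 ± 7.49 CPM in KO and 34.0 ± 1.47 CPM in WT (SD, n = 3 each) and rose by 0.75 (SE 0.11, adjusted p = 0.0019). Mus81, a nuclease that cuts branched intermediates, averaged 16.9 ± 1.66 CPM in KO and 26.8 ± 0.2 CPM in WT and fell (-0.67, SE 0.10, adjusted p = 0.0021). The complex that dissolves double Holliday junctions together with the member Blm was split: Top3a, its topoisomerase, rose by 0.52 (SE 0.09, adjusted p = 0.0033), while Rmi2, one of its structural subunits, fell to 20.8 ± 4.26 CPM in KO, against 41.3 ± 3.10 CPM in WT (-0.99, SE 0.15, adjusted p = 0.0025). Rmi1, the other structural subunit, named after its value was seen, fell too (-0.39, SE 0.13, adjusted p = 0.0414). The count of 21 was 13 without KO replicate 2 and 12 without WT replicate 4, and the count of 8 was 2 without KO replicate 2, KO replicate 3 or WT replicate 4 and 3 without WT replicate 1.

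Of 18 damage checkpoint genes 5 rose, 1 fell and 12 were not called, at a median of 0.17. The share that rose was 27.8%, near the 23.9% of all tested genes. Clspn, the adaptor through which ATR activates CHK1, averaged 147 ± 33.9 CPM in KO and 94.1 ± 6.00 CPM in WT (0.64, SE 0.17, adjusted p = 0.0166), and Etaa1 (0.45) and Topbp1 (0.31), the activators of ATR, also rose. Rad9a, a subunit of the checkpoint clamp, fell to 43.5 ± 7.29 CPM in KO, against 78.1 ± 2.42 CPM in WT (-0.84, SE 0.12, adjusted p = 0.0019). The count of 5 was 2 without KO replicate 2, KO replicate 4 or WT replicate 4, and 2 genes fell without KO replicate 4 or WT replicate 3.

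Non-homologous end joining, the other route for repairing breaks, had 1 of 10 genes that rose, 2 that fell and 7 that were not called, at a median of -0.06. Of all tested genes 23.9% rose and 28.5% fell. Polm, a gap-filling polymerase, rose, with 75.5 ± 9.78 CPM in KO and 29.8 ± 3.35 CPM in WT (1.34, SE 0.12, adjusted p = 0.0004). Its relative Poll fell (-0.60, SE 0.11, adjusted p = 0.0041), as did Prkdc, the catalytic subunit of the DNA-dependent kinase, at 53.2 ± 2.34 CPM in KO and 67.0 ± 4.69 CPM in WT (-0.33, SE 0.08, adjusted p = 0.0122). With 10 genes the counts are small: 2 rose without WT replicate 1 or WT replicate 3, and 1 fell without KO replicate 2 or KO replicate 3.

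**Figure D5:**
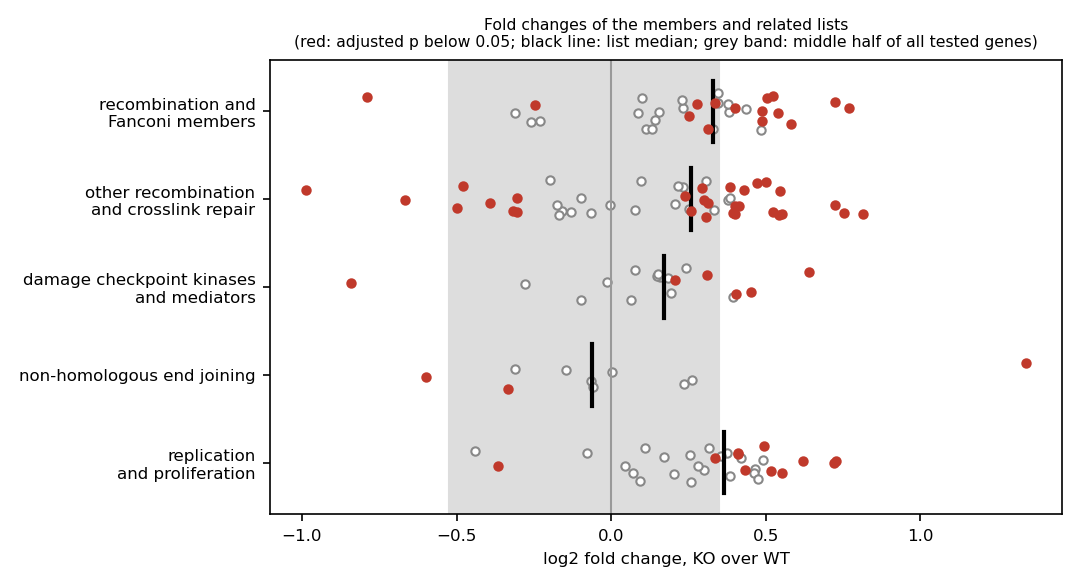
Log2 fold change, KO over WT (horizontal axis), of the members and of 4 related lists (rows), where each point is a gene, red points have an adjusted p below 0.05, the black line is the list's median and the grey band is the middle 50% of all tested genes, from -0.52 to 0.35. The medians of the members, at 0.33, and of the replication genes, at 0.36, lie near the upper edge of the band and the end joining median at -0.06.

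Levels per length, CPM per kilobase of exon, put the members on both sides of the middle of the tested genes. With the exon length listed in the count table, 14 of 33 lay above the median tested gene, which stood at 8.95 CPM per kilobase over the 6 libraries. Rad50, Nbn and Mre11a, the MRN genes, had 18.5, 17.3 and 12.7 CPM per kilobase in KO and 15.3, 10.1 and 10.2 in WT. The lowest were Rad51b, with 2.77 CPM per kilobase in KO and 3.25 in WT, Fan1, with 2.25 in KO and 1.57 in WT, and Rad51c, with 2.20 in KO and 2.07 in WT. The order depends on the length used: Fancc was the highest, at 24.3 CPM per kilobase in KO and 19.3 in WT, with its listed 807 bases, but stood at 2.35 in KO and 1.86 in WT with the 8359 bases that all its annotated exons cover. With that second length Rad50 was the highest and Fan1 the lowest. A share of the exon bases of some members also belongs to another gene, 35.9% for Rad54b, 18.6% for Fancc, 15.95% for Fanci, 15.4% for Rad54l, 14.96% for Fancf, 13.7% for Fancl and 10.5% for Fanca, and the strand setting of the counting is not given in the sources used here, so their counts are less certain.

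Promoters were searched for letters of the E2F type, since E2F factors drive many S-phase genes. The motifs were TTTCCCGC, TTTGGCGC, TTTCGCGC and TTTGCCGC on both strands, from 250 bases before to 30 after the start in RefSeq (GRCm38.p6), where 25 of 33 members matched an entry. Of these 25, 4 held a motif, against 4.51% of 10124 tested genes with an entry and 8 of 25 replication genes (32.0%). The 4 members were Brca2, Bard1, Fancg and Rad51c, of which Brca2 rose and the other 3 were not called, so that 1 of 9 risen members with an entry held the motif and 3 of 16 others did. The motif TTTGAA of the cell cycle homology region stood in 2 of the 25 members and in 14.2% of tested genes. It stood in 7 of 25 replication genes (28.0%). The promoters of Brca2, at chr5:150522371-150522650 (plus strand), and Bard1, at chr1:71102943-71103222 (minus strand), are shown as the 2 motif holders with the smallest p, the motif in capitals; in Brca2 it is read on the opposite strand.
Brca2 promoter: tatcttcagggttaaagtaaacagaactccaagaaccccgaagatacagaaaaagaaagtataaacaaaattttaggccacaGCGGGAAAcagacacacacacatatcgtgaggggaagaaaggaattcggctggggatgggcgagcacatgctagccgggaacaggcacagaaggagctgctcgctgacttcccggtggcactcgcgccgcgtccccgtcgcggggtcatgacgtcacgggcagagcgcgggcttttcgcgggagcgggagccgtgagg
Bard1 promoter: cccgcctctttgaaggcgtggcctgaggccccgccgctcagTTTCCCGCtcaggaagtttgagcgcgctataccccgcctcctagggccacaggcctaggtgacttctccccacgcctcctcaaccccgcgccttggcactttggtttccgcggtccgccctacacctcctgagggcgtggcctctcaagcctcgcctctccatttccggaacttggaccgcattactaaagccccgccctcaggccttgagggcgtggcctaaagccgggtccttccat
Absence of a match says only that these letters are not in this window.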

How the data were processed

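Raw whole-number counts for each Ensembl gene were deposited with symbols, exon lengths and positions on GRCm38.p6 per the file headers. The aligner and the counting program, strand setting included, were not given in the sources used here. Deposited tables of scaled values were not used. The authors' comparison table gives a log2 fold change and an FDR, an adjusted p-value, from DESeq2 per the deposited statistics table. Libraries were grouped by the genotype in their titles. Genes were kept by filterByExpr (minimum count 10, minimum total 15), normalised by TMM and tested with the edgeR 4.0.16 quasi-likelihood F test on genotype alone in R 4.3.3, with Benjamini-Hochberg adjustment over all 14481 genes. The fit was tested on simulated data. The SE is the log2 fold change divided by the square root of F. Alternatives were other factors, DESeq2 1.42.0, limma-voom (limma 3.58.1), other filters, a block for the replicate number, and fits with 1 library left out at a time. The block fit draws its genotype difference from replicates 3 and 4 alone, the numbers found in both genotypes. Members and lists were chosen with earlier results of these data known. Genes named were the 10 members with the smallest p, Brca1, Brca2, Fancd2, Fanci and Rad51c in full, the others by value, and up to 4 genes of each other list with the smallest p. Seed matches were sought in each gene's longest 3′ UTR. A result on a withheld item is not reported here.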

Additional observations from a re-analysis of the deposited data

How the results depend on the processing

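Of the 15 members called, 5 were called under all 13 alternatives (Nbn, Exo1, Fanca, Fance and Fan1) and 10 lost the call under 1 or more, and 7 of the 18 members not called passed under 1 or more. The sign held under every alternative for 31 of 33 members: that of Rad51c turned with the replicate block (-0.087) and without KO replicate 4 (-0.050), and that of Brip1 without KO replicate 4 (-0.045), while both were highest without KO replicate 3 (0.30 and 0.37). Members that rose numbered 12 to 15 under other tools, factors and filters. Members that fell numbered 1 with RLE factors, upper-quartile factors, DESeq2 or no filter on low counts. Leaving out each library gave 5 to 18 members that rose and 0 to 2 that fell. It gave 12 to 24 rises and 2 to 8 falls among other recombination genes, 2 to 7 and 1 to 2 among checkpoint genes, 1 to 2 and 1 to 3 among end joining genes, 4 to 23 and 0 to 2 among replication genes, and 2396 to 3848 and 3218 to 4479 among all genes tested.

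With upper-quartile factors 3 other recombination genes fell, and 17 replication genes rose and 0 fell. In DESeq2 17 replication genes rose and 2 fell, and in limma-voom 2 fell. With no filter on low counts 2 other recombination genes and 1 end joining gene fell, and 19 replication genes rose and 0 fell. Upper-quartile factors moved the median of all genes to 0.06. Replicate numbers 3 and 4 occur in both genotypes. Deviations from the genotype mean correlated across genes at 0.04 and 0.19 for libraries with the same number. The correlation was -0.15 for KO replicate 3 against WT replicate 4 and -0.40 for KO replicate 4 against WT replicate 3. These values do not settle whether the numbers mark a pairing. The labels do not say what the numbers mark, so the main fit did not use them. With the replicate number as a block the calls of Mre11a (adjusted p = 0.0516), Rad50 (0.0971), Fancc (0.0968), Slx4 (0.181) and Rad51d (0.153) were lost in the edgeR fit, and Fancf (0.0277) and Fancm (-0.47, 0.0046) were called. In that fit 10 members rose and 2 fell, 13 other recombination genes rose and 5 fell, 2 checkpoint genes rose, 2 end joining genes rose, and 6 replication genes rose and 2 fell. In that fit KO replicate 2 and WT replicate 1 each stand alone in their block. Its genotype difference therefore rests on replicates 3 and 4 of each genotype, fewer libraries than in the main fit. The cause of these shifts was not tested. A floor of 3 counts was between 0.103 and 0.169 CPM.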
